A study of Mus musculus with 8 samples.

Results

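The genes described here were 10 PRAME-like genes of the mouse, 4 from a cluster on chromosome 4 (Gm13103, Gm13088, C87977 and Gm13100) and 6 from a cluster on chromosome 5 (C87414, Gm3259, AA792892, D5Ertd577e, Gm3106 and E330014E10Rik). They were listed by name, out of 54838 genes in the count table, and the list carried no threshold. They were picked with results of these same libraries known, so their values, fold changes and calls are given as a description, and no p-value is printed for a member. RNA was sequenced from mouse oocytes of strain C57BL/6, with 5 to 10 oocytes pooled per library. The 4 groups held 2 libraries each: wildtype control oocytes at the germinal vesicle (GV) stage, wildtype control oocytes at metaphase II (MII), and BAF250a Gdf9-cre knockout oocytes at GV and at MII. GV oocytes are arrested in the first meiotic prophase, and MII oocytes are the mature eggs arrested before fertilization. BAF250a is the product of Arid1a and belongs to BAF, a SWI/SNF-type complex that moves nucleosomes with the energy of ATP. The Gdf9-cre transgene deletes in oocytes, so the other cells of the ovary keep the gene. The labels state neither the ages of the mice nor whether the 2 libraries of a group came from different mice. The p-values below therefore measure only the spread between these libraries.

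PRAME (preferentially expressed antigen in melanoma) is a leucine-rich-repeat protein of testis, tumours and germ cells that in human cells acts as a substrate receptor of a cullin-based ubiquitin ligase. In rodents the family has expanded into tandem arrays, many of whose copies are expressed in germ cells and early embryos, and the oogenesins Oog1 to Oog4 were named for their expression in oocytes. The function of most single copies in these arrays is not known. Because the copies arose by duplication, long stretches of their transcripts are alike, and reads can fall on the wrong copy.

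Libraries held 19587421 to 33289150 reads in genes. Mitochondrial genes held 6.03% and 6.93% of these reads in the control and 3.03% and 4.41% in the knockout MII libraries. At GV their share was 0.446% and 0.105% in control and 0.249% and 0.379% in knockout libraries. A part of this share in the results was not tested. The targeted gene, Arid1a, fell at GV from 8178 and 10928 control reads to 86 and 312 knockout reads (edgeR adjusted p = 0.000526). Its MII reads fell from 42047 and 39148 to 1109 and 576 (edgeR adjusted p = 0.000463). Levels are given as CPM, the count per 1000000 reads in the 15572 tested genes, scaled by the trimmed mean of M-values. The scaling factor was 0.779 for knockout GV 1 and 1.08 for knockout GV 2, beside 1.03 and 1.22 for the control GV libraries. A log2 fold change compares knockout with control unless stated otherwise, and a gene was called when its adjusted p in edgeR's quasi-likelihood test was below 0.05. In these pools, fewer cells of a type and less RNA per cell cannot be told apart. Oocyte markers such as Zp3 and Gdf9 (14 genes, 14 tested) summed to 47407 to 55651 CPM in control GV and 45978 to 49003 CPM in knockout GV libraries, here over the reads in all genes. The 16 granulosa and cumulus markers, 13 of them tested, summed to 126 to 158 CPM in control and 66.2 to 86.0 CPM in knockout GV libraries, and to 159 to 177 CPM against 103 to 122 CPM at MII. The 13 blood and immune markers summed to 5.83 to 9.24 CPM against 7.10 to 8.58 CPM at GV and 8.54 to 18.6 CPM against 6.58 to 8.67 CPM at MII, and 3 of them had 0 reads in all 8 libraries. The granulosa sums were lower in the knockout libraries at both stages, as were most chromosome 5 members below, and their part in the results was not tested.

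The sequences of the members set how well their reads can be told apart. C87414, Gm3259 and AA792892 formed 1 group of near-identical copies on chromosome 5. The coding sequences of C87414 and Gm3259 were 98.74% identical over 1428 aligned bases, and those of C87414 and AA792892 96.3% over 837. The following windows cover coding positions 155 to 244, counted from the A of the start codon, of the mm10 transcripts in GENCODE M21. They are shown because they hold 7 positions at which a read could separate these copies. Capitals mark the bases that differ within the set.
C87414: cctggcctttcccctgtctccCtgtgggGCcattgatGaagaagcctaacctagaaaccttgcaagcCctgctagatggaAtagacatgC
Gm3259: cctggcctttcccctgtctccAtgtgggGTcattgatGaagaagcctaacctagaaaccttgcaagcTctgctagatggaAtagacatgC
AA792892: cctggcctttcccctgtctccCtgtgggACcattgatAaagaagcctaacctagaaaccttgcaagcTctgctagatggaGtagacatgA

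D5Ertd577e and E330014E10Rik differed at a single coding base, A679T, over 1446 aligned bases, an identity of 99.93%. Gm3106 was 96.89% identical to D5Ertd577e, but 99.86% identical to each of Gm3183 and Gm16513, which are not members. The windows below cover coding positions 672 to 761 of these 3 genes, with 6 differing positions in capitals, and include the only coding base that separates D5Ertd577e from E330014E10Rik. Reads that miss this base can separate the pair only outside the coding sequence. The base does not identify E330014E10Rik, because Gm3286, which is not a member, had the same coding sequence over all 1446 bases. The windows therefore separate the 3 genes from each other, and not from all of their copies.
D5Ertd577e: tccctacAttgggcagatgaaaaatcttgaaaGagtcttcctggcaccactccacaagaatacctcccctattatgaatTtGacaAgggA
E330014E10Rik: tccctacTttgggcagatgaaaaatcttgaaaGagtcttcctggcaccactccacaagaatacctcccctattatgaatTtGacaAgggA
Gm3106: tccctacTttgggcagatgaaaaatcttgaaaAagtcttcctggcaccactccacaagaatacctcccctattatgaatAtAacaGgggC

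On chromosome 4, Gm13103 and Gm13088 were 98.63% identical over 1383 aligned coding bases, whereas C87977 shared 81.82% with Gm13103 and 82.34% with Gm13088. The third set of windows starts at coding position 1276 in Gm13103, 1183 in Gm13088 and 1285 in C87977, and has 15 differing positions in capitals. It is shown because Gm13103 and Gm13088, the closest pair on this chromosome, had opposite differences between knockout and control oocytes. Gm13100 is annotated as an unprocessed pseudogene and was compared by its whole transcript, which was 81.22% identical to Gm13103 over 1390 bases.
Gm13103: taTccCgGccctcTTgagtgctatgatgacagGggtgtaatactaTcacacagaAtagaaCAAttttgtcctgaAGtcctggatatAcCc
Gm13088: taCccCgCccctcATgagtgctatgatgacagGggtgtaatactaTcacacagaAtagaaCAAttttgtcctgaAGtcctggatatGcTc
C87977: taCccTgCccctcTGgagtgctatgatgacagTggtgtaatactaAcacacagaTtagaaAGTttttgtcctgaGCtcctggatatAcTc

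The share of a gene's 50-base stretches that occur in no other annotated gene was 76.0% for C87977, 56.7% for Gm13103, 54.1% for AA792892, 50.1% for Gm13088 and 43.8% for Gm13100. It was 41.5% for C87414, 22.8% for D5Ertd577e, 16.9% for Gm3259, 15.5% for Gm3106 and 7.0% for E330014E10Rik. The median over the 10 members was 42.6%. E330014E10Rik therefore had the least sequence of its own, and 87.8% of its 50-base stretches also occurred in the neighbouring gene Gm3286. Between 7.82% and 13.0% of each library's reads were set aside in the count table as not uniquely aligned, and the labels state neither how such reads were handled nor the strand setting. Values of single copies are therefore uncertain, and sums over the closest copies are given after them.

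**Figure D1:**
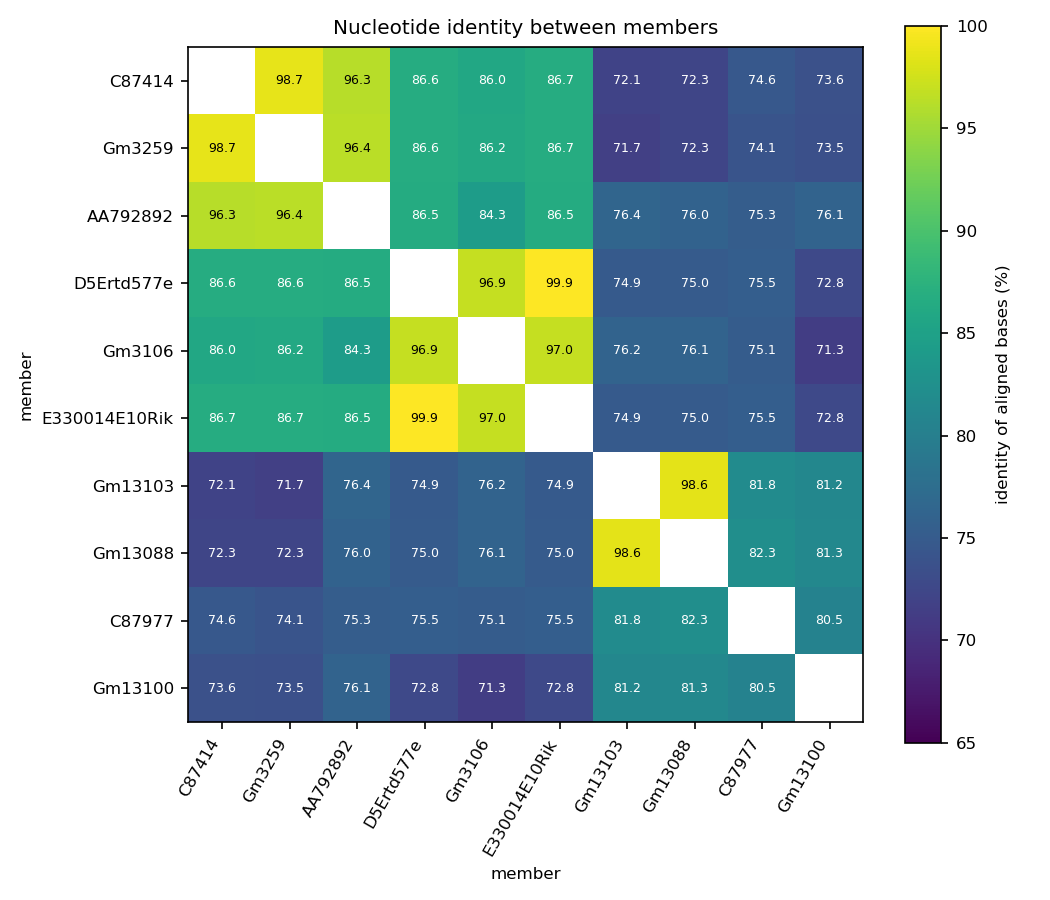
Nucleotide identity of aligned bases, in percent, between the 10 members (coding sequences; whole transcript for Gm13100). The 6 chromosome 5 genes at the upper left fall into a set with C87414, Gm3259 and AA792892 and a set with D5Ertd577e, Gm3106 and E330014E10Rik, and Gm13103 and Gm13088 form the closest pair on chromosome 4.

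On chromosome 5, 5 of the 6 members were lower in knockout oocytes at both stages. C87414 (Pramel34 in RefSeq, ENSMUSG00000070686, chr5:93634993-93671551, minus strand) was at 132 and 120 CPM in the control GV libraries and 6.40 and 6.11 CPM in the knockout GV libraries. At MII it was at 315 and 348 CPM in control and 5.84 and 4.08 CPM in knockout libraries. The groups were far apart at both stages, and the knockout mean was 20.1-fold lower at GV (log2 fold change -4.33 ± 0.31 SE) and 66.9-fold lower at MII (-6.06 ± 0.33 SE). It had the most reads of the chromosome 5 members in control oocytes.

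Gm3259 (Pramel47, ENSMUSG00000079424, chr5:95305911-95343917, plus strand) was at 22.7 and 16.4 CPM in control GV and 2.44 and 3.30 CPM in knockout GV libraries. Its MII values were 23.7 and 21.4 CPM in control and 0.596 and 0.529 CPM in knockout libraries. Neither stage had overlapping groups, with a 6.81-fold lower mean at GV (-2.76 ± 0.46 SE) and a 40.2-fold lower mean at MII (-5.31 ± 0.52 SE). AA792892 (ENSMUSG00000073497, chr5:94339749-94385079, plus strand) was at 38.6 and 22.7 CPM in control GV and 2.95 and 1.49 CPM in knockout GV libraries. At MII its levels were 15.7 and 14.7 CPM against 0.804 and 1.89 CPM. All knockout libraries lay below all control libraries of the same stage, by 13.8-fold in the mean at GV (-3.80 ± 0.60 SE) and 11.3-fold at MII (-3.50 ± 0.59 SE).

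D5Ertd577e (Pramel48, ENSMUSG00000070677, chr5:95456806-95485587, plus strand) had the lowest knockout share of its control level among the 10 genes. It was at 71.4 and 86.4 CPM in control GV and 1.36 and 1.90 CPM in knockout GV libraries, a 48.4-fold lower mean (-5.58 ± 0.42 SE). At MII it was at 42.4 and 28.1 CPM in control and 0.298 and 0.264 CPM in knockout libraries, which hold 10 and 7 reads. The MII means differed 125-fold (-6.94 ± 0.47 SE).

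Gm3106 (ENSMUSG00000096259, chr5:94218005-94222010, plus strand) was at 9.14 and 16.0 CPM in control GV and 0.397 and 0.702 CPM in knockout GV libraries, a 22.9-fold lower mean (-4.49 ± 0.77 SE). At MII the control libraries had 91 and 93 reads and the knockout libraries 1 and 2. The ratio of the summed MII reads, scaled to depth, was 65.5 with an exact 95% interval of 22.0 to 320, which covers counting error only.

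E330014E10Rik (ENSMUSG00000072813, chr5:95775990-95804708, plus strand), the near-twin of D5Ertd577e, was the 1 member whose groups overlapped at both stages. It was at 3.02 and 4.40 CPM in control GV and 3.40 and 3.68 CPM in knockout GV libraries (-0.07 ± 0.85 SE). At MII it was at 0.385 and 0.397 CPM in control and 0.506 and 0.151 CPM in knockout libraries, 22 reads against 21 in all. The depth-scaled MII ratio of control to knockout was 1.12, with an exact 95% counting interval of 0.587 to 2.14. That interval covers counting error only. It leaves out the spread between the knockout MII libraries, which held 17 and 4 reads, and reads shared with other copies.

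**Figure D2:**
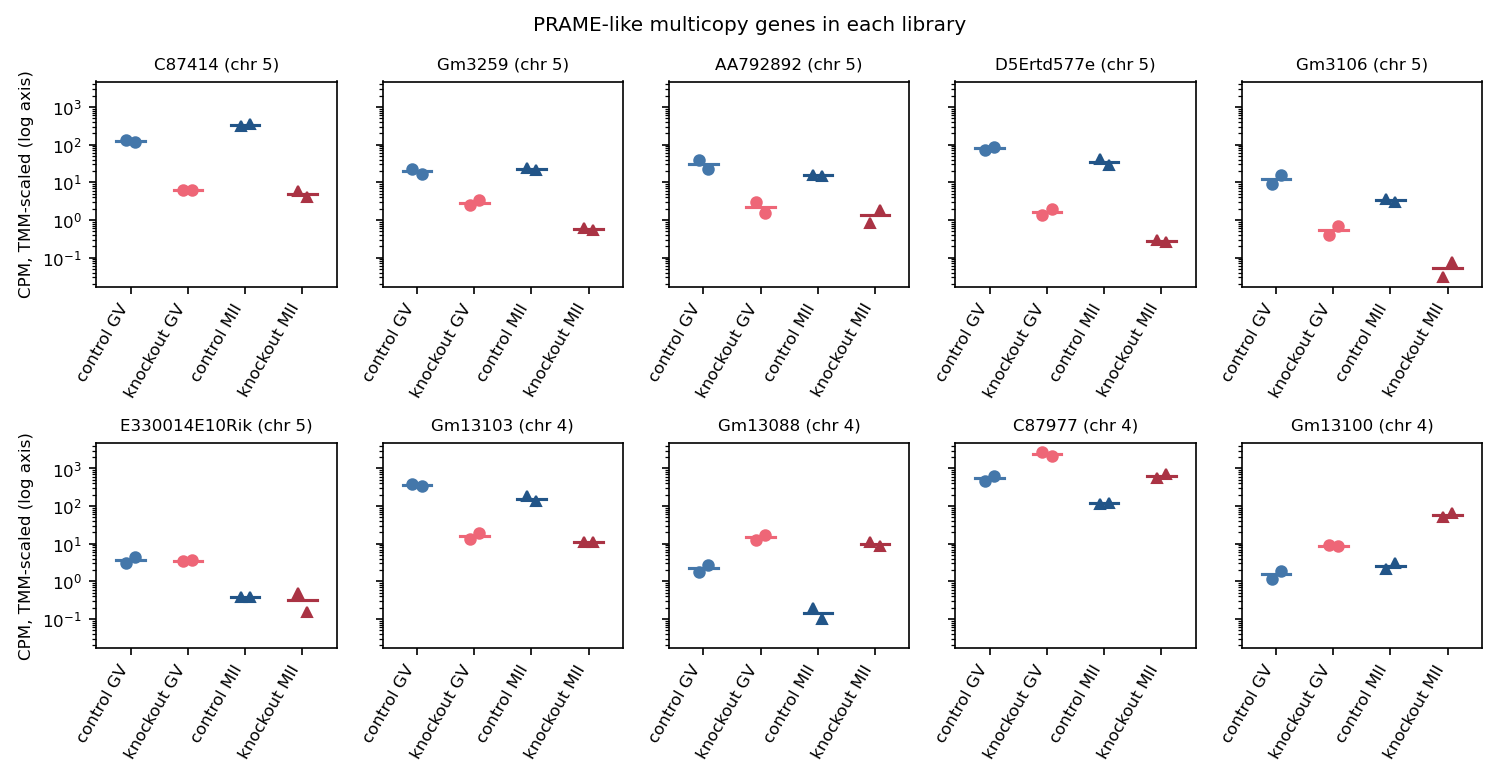
CPM of each member on a log axis, with 1 point per library and a horizontal line at the mean of each group of 2. The knockout points of C87414, Gm3259, AA792892, D5Ertd577e, Gm3106 and Gm13103 sit below the control points of the same stage, those of Gm13088, C87977 and Gm13100 sit above them, and those of E330014E10Rik overlap.

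The chromosome 4 members did not move in 1 direction. Gm13103 (Pramel27, ENSMUSG00000029451, chr4:143846497-143853637, plus strand) was at 382 and 348 CPM in control GV and 13.5 and 19.1 CPM in knockout GV libraries. At MII it was at 181 and 136 CPM in control and 11.2 and 11.3 CPM in knockout libraries. Its knockout mean was 22.4-fold lower at GV (-4.49 ± 0.32 SE) and 14.1-fold lower at MII (-3.82 ± 0.31 SE).

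Gm13088 (Pramel22, ENSMUSG00000078513, chr4:143653760-143657246, minus strand) differed in the other direction. It was at 1.76 and 2.81 CPM in control GV and 12.7 and 17.4 CPM in knockout GV libraries, a 6.60-fold higher mean (2.72 ± 0.58 SE). At MII the control libraries held 5 and 3 reads and the knockout libraries 382 and 226, a depth-scaled ratio of 71.2 with an exact 95% counting interval of 35.9 to 166. In knockout oocytes Gm13088 and Gm13103 were at similar levels, 15.1 ± 3.31 and 16.3 ± 3.96 CPM (SD, n = 2) at GV, whereas in control GV oocytes they were at 2.29 ± 0.738 and 365 ± 24.1 CPM (SD, n = 2).

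C87977 (Pramel29, ENSMUSG00000046262, chr4:144206775-144213318, minus strand) was the most abundant member in knockout oocytes. It was at 464 and 633 CPM in control GV and 2684 and 2166 CPM in knockout GV libraries, a 4.42-fold higher mean (2.14 ± 0.30 SE). At MII it was at 111 and 124 CPM in control and 564 and 707 CPM in knockout libraries, 5.39-fold higher (2.43 ± 0.31 SE). With 76.0% of its 50-base stretches found in no other gene, it was the member best separated from its relatives.

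Gm13100 (ENSMUSG00000083749, chr4:143913857-143916442, plus strand), the pseudogene, was at 1.16 and 1.93 CPM in control GV and 9.12 and 8.72 CPM in knockout GV libraries, a 5.78-fold higher mean (2.52 ± 0.43 SE). At MII it was at 2.08 and 3.04 CPM in control and 51.4 and 66.1 CPM in knockout libraries, 23.0-fold higher (4.52 ± 0.46 SE). Its level in knockout MII libraries was the highest it reached in any group.

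At GV, 8 of the 10 members were called, 2 higher (C87977 and Gm13100) and 6 lower (C87414, Gm3259, AA792892, D5Ertd577e, Gm3106 and Gm13103), where 0.989% of all tested genes were called, 0.597% higher and 0.392% lower. At MII 9 were called, the same 6 lower and 3 higher with Gm13088 added, where 5.14% of all genes were called, 1.7% higher and 3.44% lower. The groups did not overlap for 9 members at each stage, 3 higher and 6 lower; over all tested genes 22.6% lay wholly higher and 23.8% wholly lower at GV, and 21.7% and 24.7% at MII. Because the members were picked from these libraries, nothing is read from these counts. The median log2 fold change was -4.06 at GV and -5.60 at MII for the 6 chromosome 5 members and 2.33 and 3.47 for the 4 on chromosome 4, beside -0.0021 and -0.0092 for all tested genes. Without any 1 of the 4 GV libraries, Gm3106, AA792892, Gm3259 and Gm13100 were no longer called, and C87977 was no longer called without either control GV library, which left 3 or 4 called members. Their log2 fold changes without 1 library stayed between -4.96 and -4.04 for Gm3106, between -4.35 and -3.36 for AA792892, between -2.99 and -2.51 for Gm3259, between 2.21 and 2.94 for Gm13100 and between 1.94 and 2.39 for C87977. Gm13100 was also not called at GV when libraries were scaled by their totals alone.

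**Figure D3:**
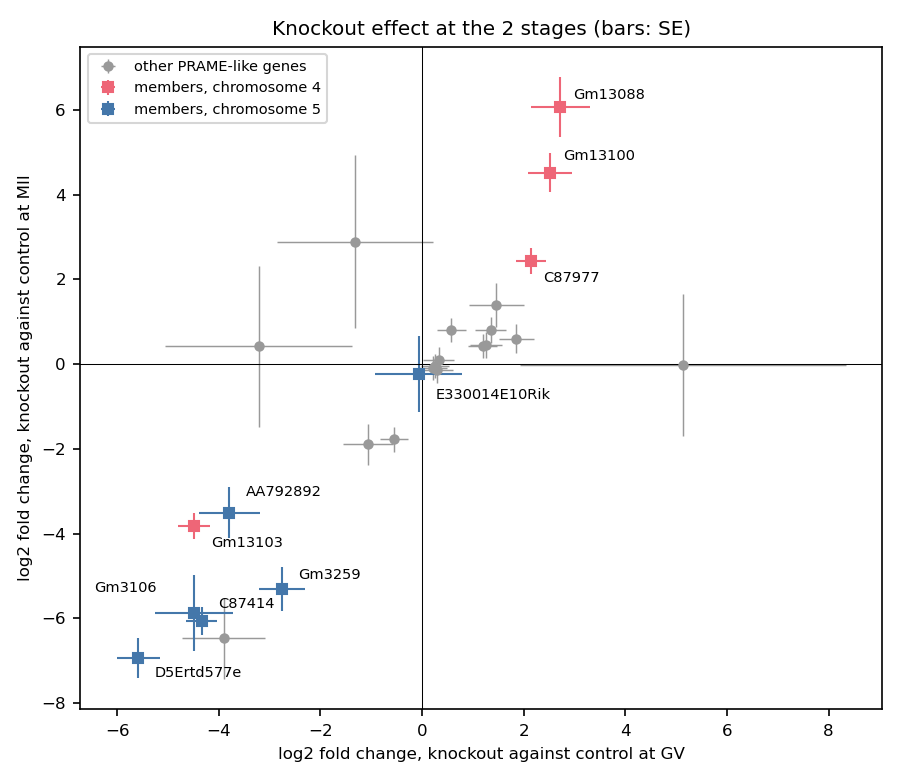
Log2 fold change of knockout against control at GV (horizontal) and at MII (vertical), with bars of 1 SE, for the 10 members and the 16 other tested PRAME-like genes in grey. D5Ertd577e lies lowest at -5.58 and -6.94, Gm13088 highest among the members at 2.72 and 6.07, and E330014E10Rik near 0 on both axes; the grey points with the widest bars are genes with few reads, such as Gm13078.

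The knockout difference was compared between the stages by the interaction of genotype and stage. By edgeR 0 of the 10 members were called for this difference, where 0.0835% of all genes were. At an unadjusted edgeR p below 0.05 there were 5 members, beside 1787 of all 15572 tested genes. DESeq2 called 3 members (C87414, Gm3259 and Gm13088). No share over all genes is given for DESeq2 calls, here or below. The interaction was -1.73 ± 0.38 SE for C87414, -2.55 ± 0.63 SE for Gm3259, 3.35 ± 0.85 SE for Gm13088 and 1.99 ± 0.58 SE for Gm13100 on the log2 scale. For these 4 genes the MII difference was the wider of the pair, in the direction of the GV difference.

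Maturation from GV to MII was described in each genotype. In control oocytes 7 members were called, where 49.1% of all tested genes were, 21.2% higher and 27.9% lower. C87414 was the 1 member called higher, from 126 ± 8.68 to 332 ± 23.5 CPM (SD, n = 2), 2.63-fold. The 6 called lower were Gm13088, C87977, E330014E10Rik, Gm3106, Gm13103 and D5Ertd577e, with means 15.7-fold, 4.65-fold, 9.50-fold, 3.82-fold, 2.30-fold and 2.24-fold lower at MII. Without control GV 1 or without control GV 2, 4 of these calls remained in the count, and D5Ertd577e, Gm3106 and E330014E10Rik were those lost in both cases. In knockout oocytes 6 members were called, where 49% of all tested genes were, 19.9% higher and 29.1% lower. Gm13100 was higher at MII, 6.59-fold, and C87977, Gm3259, D5Ertd577e, Gm3106 and E330014E10Rik were lower, by 3.82-fold, 5.11-fold, 5.80-fold, 10.4-fold and 10.8-fold. C87414, which was 2.63-fold higher at MII in control oocytes, was 1.26-fold lower in knockout oocytes and not called (-0.33 ± 0.28 SE). Without knockout GV 2, Gm3106 and E330014E10Rik were no longer called, which left 4. The groups of 2 libraries did not overlap between stages for 9 members in control oocytes (2 higher at MII, 7 lower), beside 34.8% of all tested genes wholly higher and 43.1% wholly lower. In knockout oocytes they did not overlap for 9 members (1 higher, 8 lower), beside 33.3% and 43.6% of all tested genes. When libraries were scaled by their totals alone, these counts were 8 and 6. The libraries of each stage also enter the knockout comparisons above, so these values are not independent of them.

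Per kilobase of exon (RPKM, the CPM divided by the exonic length), Gm13103 and C87977 led in control GV oocytes at 184 ± 12.1 and 184 ± 40.2 RPKM (SD, n = 2), and their ranges overlapped. C87414 at 42.5 ± 2.93, D5Ertd577e at 30.8 ± 4.14 and AA792892 at 14.998 ± 5.49 RPKM followed, with ranges that did not overlap between neighbours. Gm3259 at 7.29 ± 1.64 and Gm3106 at 5.27 ± 2.02 RPKM overlapped, as did E330014E10Rik, Gm13088 and Gm13100, all between 1.07 and 1.498 RPKM. In control MII oocytes C87414 came first at 112 ± 7.92 RPKM, ahead of Gm13103 at 80.2 ± 16.1 and C87977 at 39.5 ± 3.10 RPKM. In knockout GV oocytes C87977 stood at 814 ± 123 RPKM, and the next member, Gm13088, at 8.29 ± 1.82 RPKM. In knockout MII oocytes C87977 at 213 ± 33.8 RPKM was followed by Gm13100 at 40.8 ± 7.18 RPKM. Below the leading genes the order depended on the length used. With the CPM divided by the kilobases of a gene's own sequence, found in no other gene, in place of its exonic length, the control GV level of D5Ertd577e (137 CPM per kilobase) was above that of C87414 (98.1). AA792892 (28.4) was then below Gm3259 (41.7) and Gm3106 (34.8). In control MII oocytes D5Ertd577e (61.4) was then above C87977 (49.3). In knockout GV oocytes E330014E10Rik (20.8) was then second to C87977, above Gm13088 (17.0).

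Reads split between copies are counted once in sums over the members and their closest copies. In 5 of 6 groups the sum kept the direction of the member with the most reads in control oocytes. That member supplied most of the reads of these sums in the control GV libraries. In control GV 1 its part ran from 2848 of 4719 reads (C87414) to 8237 of 8275 (Gm13103). The shared direction is therefore no separate check on the member. The sums are given as CPM over the reads in all genes. C87414, Gm3259, AA792892 and their copies Gm6205 and Gm6367 summed to 226 and 215 CPM in control GV against 12.5 and 17.5 CPM in knockout GV libraries, and to 382 and 415 CPM against 12.2 and 10.5 CPM at MII. D5Ertd577e, E330014E10Rik and Gm3286 summed to 77.5 and 112 CPM against 4.01 and 8.22 CPM at GV, and to 42.8 and 29.1 CPM against 0.871 and 0.451 CPM at MII. Gm3106 with Gm16513, Gm7792, Gm3183 and Gm3139 summed to 11.4 and 22.4 CPM against 0.793 and 1.34 CPM at GV, and to 3.54 and 3.26 CPM against 0.0601 and 0.208 CPM at MII. All 3 chromosome 5 sums were lower in the knockout libraries.

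On chromosome 4, Gm13103 and Gm13088 together summed to 396 and 428 CPM in control GV against 20.4 and 39.5 CPM in knockout GV libraries, and to 182 and 139 CPM against 22.8 and 18.2 CPM at MII. The higher reads on Gm13088 therefore did not make up for the lower reads on Gm13103. C87977 and its nearest relative Gm2042 summed to 725 and 1067 CPM against 2615 and 2871 CPM at GV. At MII they summed to 269 and 298 CPM against 772 and 923 CPM. Gm2042 held only 14.9% of the 50-base stretches of C87977. Gm13023, Oog1 and Gm10436 held 14.2%, 13.5% and 13.2% of them and were not in the sum. At GV these relatives were also higher in knockout oocytes (log2 fold changes 1.86, 1.19 and 1.26), with Gm13023 alone called among the 3. Gm13100 with the pseudogene Gm13058 was the exception. Gm13058, looked at after its values were seen, had 153 and 277 reads at GV in the control libraries and 8 and 11 in the knockout libraries, and was not called (edgeR adjusted p = 0.0946). Their GV sum overlapped between the groups, at 8.51 and 16.5 CPM in control and 7.45 and 9.92 CPM in knockout libraries, whereas at MII it was 4.46 and 3.46 CPM against 52.9 and 62.2 CPM. The GV difference of Gm13100 is thus uncertain in the presence of this copy, with which it shared 55.5% of its 50-base stretches. The shares of reads set aside as not uniquely aligned were 12.2% and 11.4% (control) beside 13.0% and 11.8% (knockout) at GV. At MII they were 10.3% and 11.3% (control) beside 7.82% and 8.34% (knockout).

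**Figure D4:**
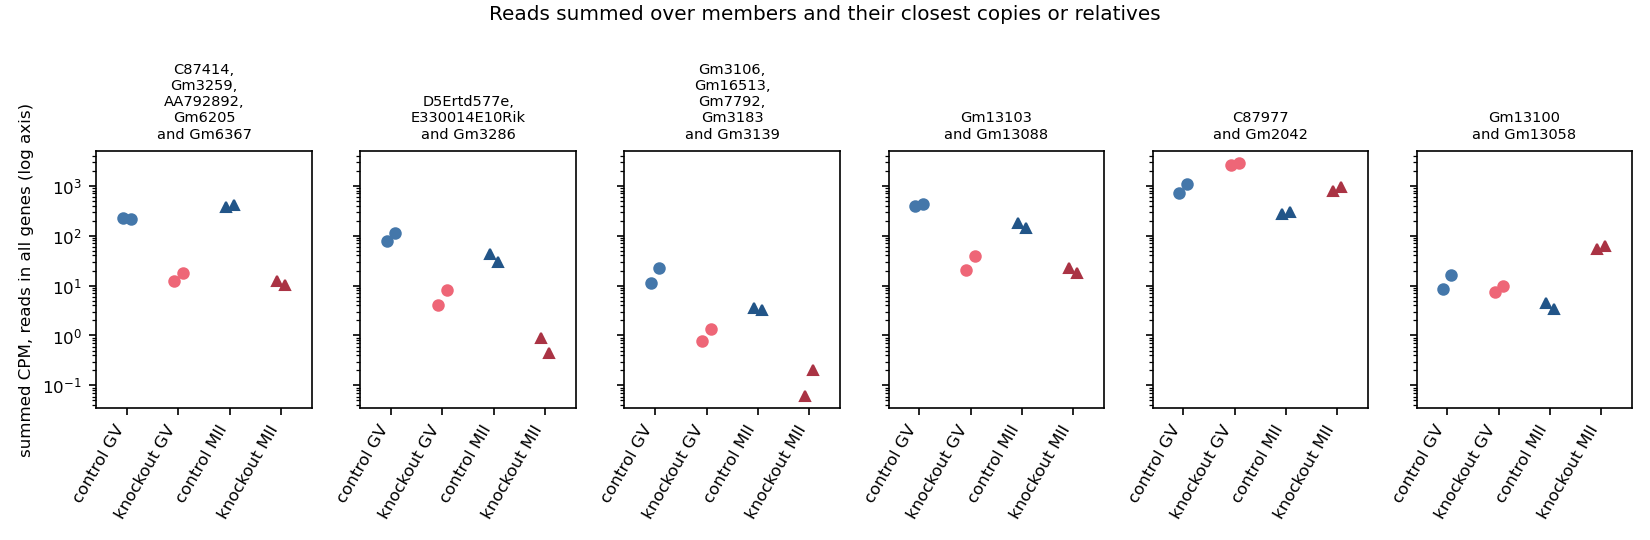
Reads summed over members and their closest copies or, for C87977, its nearest relative, in CPM over the reads in all genes, on a log axis with 1 point per library. The first 4 sums are lower in the knockout libraries at both stages, the sum of C87977 and Gm2042 is higher at both, and the sum of Gm13100 and Gm13058 overlaps at GV and is higher at MII.

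Summed over all 10 members, the knockout GV libraries held more reads, 2130 and 2409 CPM against 1160 and 1526 CPM in control, and C87977 made up 47397 of 48320 and 52433 of 53944 member reads in the knockout GV libraries. At MII the sums overlapped, at 652 and 734 CPM in knockout and 696 and 692 CPM in control libraries. The chromosome 5 members alone summed to 285 and 324 CPM in control GV against 13.2 and 18.6 CPM in knockout GV libraries, and to 401 and 423 CPM against 8.14 and 6.41 CPM at MII.

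Of the 10 members, 5 were matched to a RefSeq promoter (GRCm38.p6; 250 bases before to 50 bases after the annotated start). Those of D5Ertd577e and E330014E10Rik are shown because the pair shared nearly all coding bases and differed in the knockout. The windows are chr5:95456556-95456855 and chr5:95775620-95775919, both on the plus strand.
D5Ertd577e: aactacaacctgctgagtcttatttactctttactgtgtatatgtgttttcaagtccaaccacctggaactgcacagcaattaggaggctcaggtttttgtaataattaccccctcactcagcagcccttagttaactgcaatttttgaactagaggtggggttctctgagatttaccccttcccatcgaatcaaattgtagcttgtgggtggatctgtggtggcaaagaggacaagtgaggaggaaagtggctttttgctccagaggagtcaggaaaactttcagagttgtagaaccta
E330014E10Rik: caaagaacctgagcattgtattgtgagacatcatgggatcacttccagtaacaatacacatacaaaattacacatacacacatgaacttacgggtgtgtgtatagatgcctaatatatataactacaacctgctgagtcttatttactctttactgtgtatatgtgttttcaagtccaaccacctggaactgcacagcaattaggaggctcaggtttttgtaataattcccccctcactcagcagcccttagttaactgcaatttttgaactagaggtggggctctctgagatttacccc

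The D5Ertd577e and E330014E10Rik windows were 98.89% identical over 180 aligned bases. The E330014E10Rik window began 120 bases further upstream in the shared sequence because it follows the RefSeq start, which lies 120 bases before the GENCODE start of that gene. For D5Ertd577e both annotations give the same start. The promoters of Gm13103 (chr4:143846247-143846546, plus strand) and C87977 (chr4:144212968-144213267, minus strand), the most abundant chromosome 4 members with opposite differences, were 78.14% identical over 279 aligned bases. In these windows the capitals mark TATAAA.
Gm13103: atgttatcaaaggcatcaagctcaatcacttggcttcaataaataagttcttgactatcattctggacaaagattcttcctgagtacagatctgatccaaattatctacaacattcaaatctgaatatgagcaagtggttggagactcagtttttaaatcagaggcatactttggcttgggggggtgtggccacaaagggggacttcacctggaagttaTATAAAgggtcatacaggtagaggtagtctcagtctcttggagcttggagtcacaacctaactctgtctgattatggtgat
C87977: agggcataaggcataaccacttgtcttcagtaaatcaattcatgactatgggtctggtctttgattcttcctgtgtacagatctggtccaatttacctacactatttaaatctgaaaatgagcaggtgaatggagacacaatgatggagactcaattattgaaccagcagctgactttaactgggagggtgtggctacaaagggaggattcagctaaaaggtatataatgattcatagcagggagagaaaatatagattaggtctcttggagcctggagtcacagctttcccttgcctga

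Among the 5 members with a promoter, TATAAA occurred on either strand in 1 (Gm13103), and in 13.6% of all 32851 promoters. Only this exact string was counted, and the C87977 window holds the similar stretch tatataa, which was not. The E-box CANNTG, the motif bound by oocyte factors such as FIGLA, occurred in 5 of 5, and in 72.3% of all promoters. TAATTG, the core recognised by homeodomain proteins such as NOBOX, occurred in 3 of 5 (C87977, D5Ertd577e and E330014E10Rik), and in 8.0% of all promoters. In D5Ertd577e and E330014E10Rik it lies in the stretch that both windows share, so these occurrences are not independent. Over the 40 promoters of the whole family the counts were 14, 38 and 12. These promoters belong to duplicated genes and are not independent of each other either.

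The other 45 genes of the PRAME-like family in the table were compared in the same fit, and 16 of them had enough reads to be tested, while 18 had 0 reads in all 8 libraries. In knockout GV oocytes 1 of the 16 was called. Gm13023 on chromosome 4 rose from 797 ± 159 to 2887 ± 805 CPM (SD, n = 2; log2 fold change 1.86 ± 0.35 SE; edgeR adjusted p = 0.0374), and this call was lost without either control GV library, either control MII library or knockout GV 1. At MII 2 were called, both on chromosome 4. Gm13089 fell from 35.3 ± 14.2 to 0.411 ± 0.539 CPM (-6.47 ± 0.96 SE; edgeR adjusted p = 0.00683), from 1177 and 764 reads to 1 and 21. Gm13084 fell from 396 ± 9.31 to 116 ± 1.97 CPM (-1.78 ± 0.29 SE; edgeR adjusted p = 0.00941), which was lost without knockout MII 2. The remaining family genes were not called in the knockout comparisons. Of the 16 log2 fold changes, 11 were above 0 and 5 below at GV, and 9 and 7 at MII. Lower without a call were Gm13089 at GV (-3.91 ± 0.82 SE, edgeR adjusted p = 0.0621) and Pramef8 at MII (-1.90 ± 0.49 SE, edgeR adjusted p = 0.0548). DESeq2 called 4 higher and 1 lower at GV, and 0 higher and 3 lower at MII, with Gm13089 and Pramef8 among the lower. Oog3, an oogenesin, was at 754 ± 113 and 1925 ± 260 CPM at GV (1.35 ± 0.31 SE; edgeR adjusted p = 0.0864), Oog1 at 278 ± 3.94 and 637 ± 165 CPM (1.19 ± 0.29 SE; edgeR adjusted p = 0.108) and Gm10436 at 1035 ± 6.46 and 2483 ± 648 CPM (1.26 ± 0.31 SE; edgeR adjusted p = 0.11). The median log2 fold change of the 16 genes was 0.32 at GV and 0.25 at MII, or -0.0039 and 0.17 when libraries were scaled by their totals alone.

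In maturation 9 of the 16 other family genes were called in control oocytes, 5 higher and 4 lower, and 11 of 16 in knockout oocytes, 3 higher and 8 lower, where 49.1% and 49% of all tested genes were called. Oog3 rose at MII in both genotypes (1.73 ± 0.31 SE in control, edgeR adjusted p = 0.00123; 1.18 ± 0.31 SE in knockout, edgeR adjusted p = 0.00942). C87499 rose by 1.40 ± 0.31 and 1.16 ± 0.31 SE, and Gm13083 by 2.30 ± 0.55 and 2.24 ± 0.54 SE. Oog4 (-1.46 and -1.75), Pramef20 (-1.84 and -2.14) and Gm13084 (-1.47 and -2.69) fell in control and in knockout oocytes on the log2 scale, each called in both. Oog1, Gm10436, Gm13023, Gm13089 and Pramef12 were called lower in knockout oocytes and not in control oocytes. The difference between genotypes, however, was called for 0 of the 16 by edgeR and by DESeq2. Of the 16, 3 had an unadjusted edgeR p below 0.05 for it, beside 1787 of all 15572 tested genes. Pramef8, Gm13078 and Gm16427 were called in control oocytes alone, Gm13078 on 175 and 1 reads in the control MII libraries and Gm16427 on 14 and 14 against 0 reads. The Pramef12 call was lost in 9 of 15 alternatives, among them scaling by library totals and leaving out either control MII library, knockout GV 1 or either knockout MII library. In knockout oocytes the call of Oog1 was lost without knockout GV 1 or knockout MII 1, that of Gm10436 without knockout MII 1 and that of Gm13089 without knockout GV 2. Those of Oog3 and C87499 were lost without knockout MII 2, that of C87499 also without knockout GV 2, and that of Gm13083 without knockout GV 1. The Gm13078 call was lost without control MII a or either control GV library, and those of Pramef8 and Gm16427 without any 1 of the control libraries or the knockout GV libraries.

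Within the clusters, 29 protein-coding genes outside the family list lay between the first and the last member of a chromosome, widened by 500 kb, and 13 were tested. At GV Ccng2, a cyclin G gene, rose from 2.88 ± 1.38 to 13.9 ± 4.38 CPM (2.27 ± 0.44 SE; edgeR adjusted p = 0.0429), and Sept11, a septin, fell from 19.5 ± 2.92 to 5.33 ± 0.171 CPM (-1.87 ± 0.35 SE; edgeR adjusted p = 0.0374). At MII Mrpl1, a mitochondrial ribosomal protein gene, rose from 1.70 ± 0.874 to 9.50 ± 0.464 CPM (2.48 ± 0.50 SE; edgeR adjusted p = 0.0226), and Sept11 fell again (-1.55 ± 0.34 SE; edgeR adjusted p = 0.031). Gm6205 and Gm6367, near-identical copies of C87414 and Gm3259 that carry no family name, fell to 2.60 ± 0.203 and 2.27 ± 0.261 CPM at MII (-2.24 ± 0.51 SE, edgeR adjusted p = 0.0348; -2.53 ± 0.54 SE, edgeR adjusted p = 0.0279). At GV Gm6205 and Gm6367 were lower without a call (-2.33 ± 0.52 SE, edgeR adjusted p = 0.0809, and -1.94 ± 0.54 SE, edgeR adjusted p = 0.158). Reads of C87414 and Gm3259 can fall on both of these copies. The calls of Ccng2 and Sept11 at GV, and of Sept11, Gm6205 and Gm6367 at MII, were lost in 6 to 10 of 13 to 15 alternatives, among them without control GV 1, and that of Mrpl1 without control MII a or knockout GV 1. Cnot6l, Pdpn, Ccni, Cxcl13 and 2010109A12Rik were called only in maturation. The chromosome 4 members lie 9.897 to 10.45 Mb from Arid1a. On chromosome 4 2.19% of 957 tested genes were called at GV and 7.84% at MII, beside 1.53% and 5.34% of 1048 on chromosome 5. Over all tested genes the shares were 0.989% and 5.14%. The chromosome shares include the picked members and, on chromosome 4, Arid1a itself. At GV members made up 5 of the 16 chromosome 5 calls, and 2 of 9 higher and 1 of 12 lower calls on chromosome 4. A part of the distance to Arid1a in these values was not tested.

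**Figure D5:**
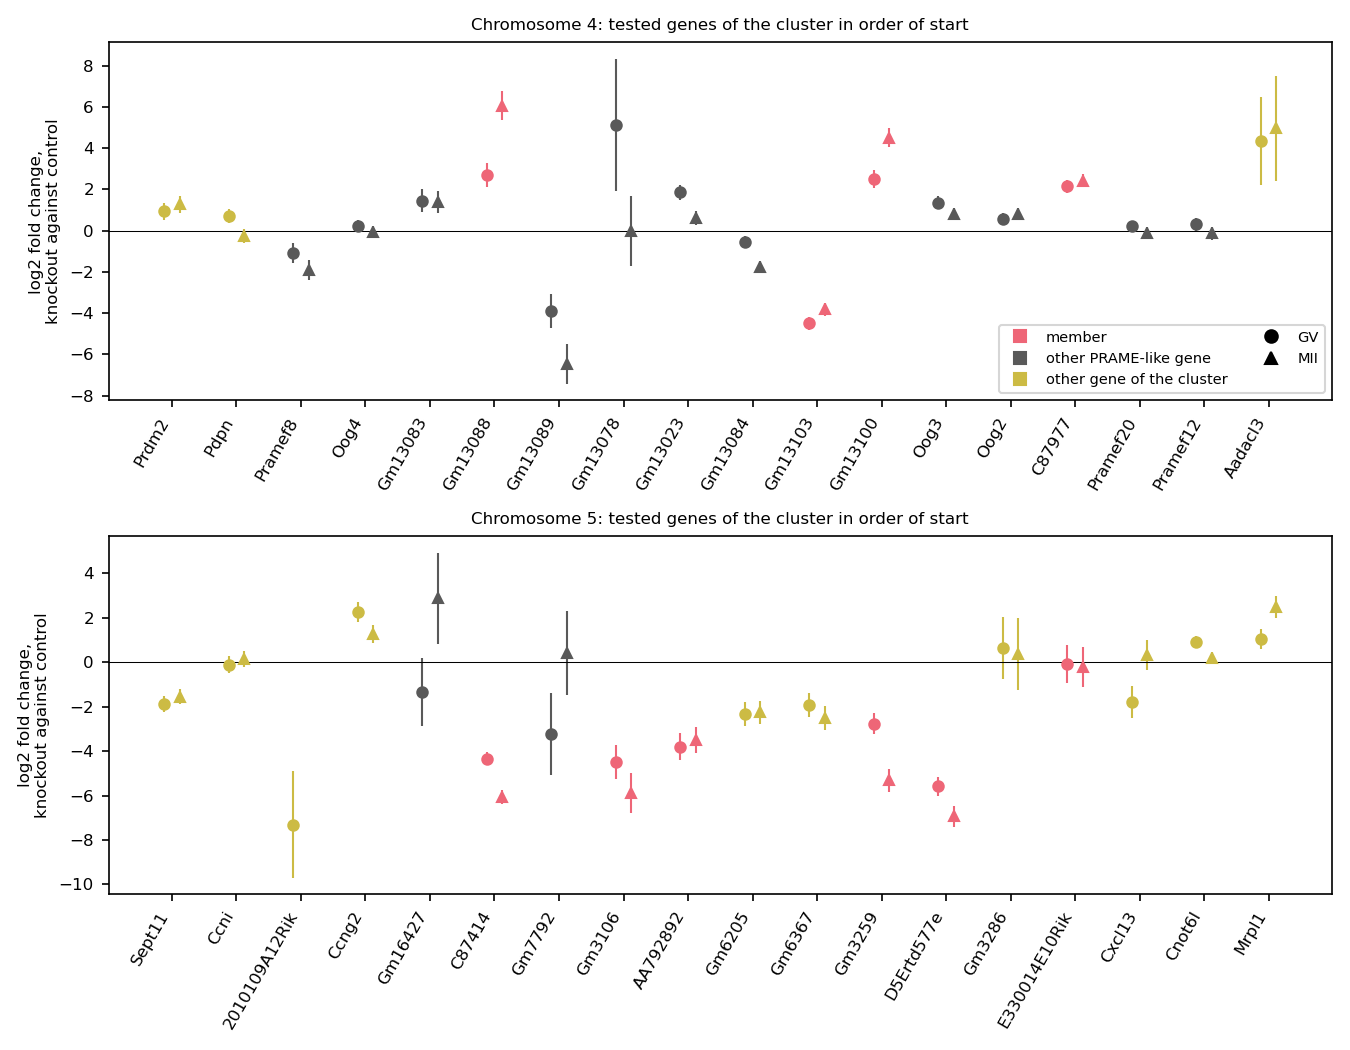
Log2 fold change of knockout against control, with bars of 1 SE, for the tested genes of both clusters in order of their start (circles GV, triangles MII). On chromosome 4 the 3 higher members and the lower Gm13103 lie among family genes, most of them nearer 0. On chromosome 5 C87414, Gm3106, AA792892, Gm3259 and D5Ertd577e lie at -2.76 or below at both stages. The tested copies between them, Gm7792, Gm6205 and Gm6367, are also below 0 at GV, at -3.22, -2.33 and -1.94. At MII Gm6205 and Gm6367 lie at -2.24 and -2.53, and Gm7792, with few reads, at 0.42. Genes outside this stretch lie on either side of 0. No MII point is drawn for 2010109A12Rik, which had 0 reads in all MII libraries.

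Other multicopy or maternal families of the oocyte were set beside the members. Of 34 genes such as Obox, Nlrp, Oas1, Tcl1b and Oosp members, 31 were tested and 0 were called by edgeR in either knockout comparison. At an unadjusted edgeR p below 0.05 there were 11 of 31 at GV and 3 of 31 at MII. Of all 15572 tested genes, 1687 at GV and 3450 at MII were below that value. These all-gene counts also stand beside the cullin and cleavage lists below. DESeq2 called 2 and 0 of the 31. Their median log2 fold change was 0.61 at GV and 0.31 at MII, with 28 of 31 above 0 at each stage. Scaling by library totals alone put the median of all tested genes at -0.27 at GV and -0.08 at MII, and the medians of these families at 0.27 and 0.26. The 6 cullin partners (Cul2, Cul5, Elob, Eloc, Rbx1 and Rnf7) had 0 calls by edgeR and by DESeq2 (1 and 2 genes at an unadjusted p below 0.05), with medians of 0.27 and 0.25, or -0.00095 and 0.19 with library totals. Markers of the cleavage-stage embryo, 9 in the table and 4 tested, summed to 147 and 147 CPM in control GV against 95.6 and 110 CPM in knockout GV libraries. By edgeR and by DESeq2 0 of these 4 were called at either stage, and at an unadjusted p below 0.05 there were 0 at GV and 1 at MII.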

How the data were processed

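RNA from 8 oocyte libraries in 4 groups of 2 was analysed from the gene-level read counts deposited by the authors, which are raw and not normalized. Per the submitters' processing notes, Bowtie2, HTSeq, edgeR and mm10 were used (versions, read length and strand setting not given in the sources used here). Groups were taken from the labels. Both control MII columns carry the same heading, so these libraries are called a and b. The 5 summary entries of the table (22.0% to 35.1% of a library's reads) were left out, and 0 columns of values were unused. Identifiers were matched to GENCODE M21 symbols (54809 of 54838).

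All 8 libraries were fitted together with edgeR 4.0.16 (filterByExpr, trimmed mean of M-values, quasi-likelihood test, Benjamini-Hochberg over 15572 genes, calls at adjusted p below 0.05) in R 4.3.3, with 4 residual degrees of freedom (common BCV, the biological coefficient of variation, 0.507). The script was tested on simulated counts. DESeq2 1.42.0, other scalings and filters, left-out libraries, a fit of only the groups compared and a replicate block were alternatives; the fit without both control MII libraries was added after seeing the data. Replicates were no copies of each other (chi-square per degree of freedom 50.5 to 111 within groups). The members and the gene lists were chosen with earlier results of these data known. The genes named besides the members were all other family genes called in any comparison (up to 15) plus the 5 most abundant, up to 10 called cluster neighbours by level, and the 5 genes most like each mean profile, of which 1 is not reported here. Stretches of 50 bases (also 35, 100 and 150) were counted over GENCODE M21 transcripts, and alignments were made with Biopython 1.88.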

Additional observations from a re-analysis of the deposited data

How the results depend on the processing

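With 2 libraries per group, pools of 5 to 10 oocytes and copies that share reads, small differences could not be resolved. No member reversed a called direction under any alternative. Leaving out 1 library at a time gave 3 to 9 called members at GV (8 with all libraries), 9 at MII, 4 to 7 for maturation in control and 4 to 6 in knockout oocytes, and 0 to 2 other family genes at GV. At GV the 1 called family gene became 5 with DESeq2, 5 without a filter on low counts, 2 with a mean of at least 5 CPM, and 0 without both control MII libraries. Fitting only the groups compared left 3 of 6 called members for maturation in knockout oocytes. For the difference between stages, 0 called members became 3 with DESeq2 and 1 without a filter, and 0 other family genes became 1 without a filter. Scaling by library totals moved the median log2 fold change of all genes at GV to -0.27. The median share of 50-base stretches found in no other gene, 42.6%, was 64.3% for 100 and 79.2% for 150 bases. Causes of these changes were not tested, except that fewer libraries leave fewer degrees of freedom.

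Same-numbered libraries showed little shared deviation: their deviations correlated at 0.119, 0.0127 and -0.020 between groups. These values cannot show whether such libraries were paired. With the replicate number as a block, over the 6 libraries whose columns carry one, 7 members and 0 other family genes were called at GV (Gm3259, Gm13023 and the neighbour Sept11 lost their calls there), and 6 members and 10 other family genes for maturation in knockout oocytes. No paired analysis was possible at MII because the control columns carry no number of their own.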

Other observations

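The genes whose levels over the 8 libraries were most like the mean log2(CPM + 1) of the members, among 11830 genes, lay mostly on other chromosomes. The libraries fall into 4 groups, so these Pearson correlations describe the pattern of the group means. For the chromosome 5 members the closest were Fam57a (0.996), Cachd1 (0.994), Mpped1 (0.987), Tmem176a (0.984) and Jakmip1 (0.981). Fam57a was at 17.3 and 21.1 CPM in control GV and 2.04 and 1.94 CPM in knockout GV libraries, and at 13.7 and 14.6 CPM against 0.596 and 0.944 CPM at MII. Cachd1 was at 46.5 and 44.0 CPM against 1.42 and 0.496 CPM at GV and 23.0 and 21.3 CPM against 0.0596 and 0.0755 CPM at MII. For the chromosome 4 members the closest were Vti1b (0.970), Tmem72 (0.970), Prr13 (0.959), Card6 (0.959) and Trub2 (0.949), each with higher means in the knockout than in the control libraries of the same stage. At GV the values of Card6 overlapped, at 6.73 and 9.68 CPM in control and 9.35 and 10.7 CPM in knockout libraries.

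For all 10 members, genes among the 5 closest were Rpl9-ps6 (0.991), Rad51d (0.979), Dhrs3 (0.975) and Pnmal1 (0.973). Dhrs3, a retinal reductase gene on chromosome 4 beyond the PRAME-like cluster, was at 39.6 and 29.7 CPM in control against 0.227 and 0.372 CPM in knockout libraries at GV, and at 5.23 and 4.96 CPM in control against 0 reads in both knockout MII libraries. With Spearman's correlation 1, 0 and 0 of the 5 genes for all members, chromosome 4 and chromosome 5 members were named again.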
